A study of Mus musculus with 2 samples.

Results

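Mouse kidneys labelled as control or as a knockout of Regnase-2 were examined by RNA-seq. The endothelial identity genes followed were Pecam1, Cdh5, Kdr, Flt1, Tek, Emcn, Plvap, Ehd3, Vwf and Eng. They were taken by symbol, and all 10 were found among the 20002 genes measured. Each group was represented by 1 library, and its differences have no replicate check. The CKO-labelled library stands for the Reg-2 conditional knockout, which the labels call specific to proximal tubules. According to the methods these mice received AAV9 with an shRNA against Regnase-2 through the tail vein at 11 weeks of age, so the model is a knockdown by a virus. The control mice received AAV9 as well, described in one place as carrying a control shRNA and in another as an empty vector. Kidneys were analysed at 14 weeks of age by the RNA-seq methods and harvested at 16 weeks by the virus methods. The labels give whole kidneys and the methods a left kidney as the tissue. The methods name C57BL/6J as the strain bought. Sex, and whether a library holds 1 mouse or a pool, are not given in the sources used here for these animals.

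Endothelial cells line the vessels of the kidney and differ from one segment to the next. Those of the glomerulus are fenestrated for filtration, those around the tubules are fenestrated for reabsorption, and larger arteries and veins carry a continuous lining. Podocytes and tubule cells make vascular endothelial growth factor (VEGF), and the endothelial receptors for it maintain the capillaries. A change in the RNA of such genes in whole kidney can stem from fewer cells or from less RNA per cell, which cannot be told apart in bulk tissue.

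After removal of a constant that each column appeared to carry, the control library held 38851231 reads and the CKO-labelled library 43588721. The reads of the CKO-labelled library are given as they stand and, where said, as scaled reads, which were multiplied by 0.667 so that the median gene had equal reads in both libraries. Log2 ratios of scaled CKO reads to control reads were taken with a pseudocount of 1. Their 95% Clopper-Pearson intervals cover counting error only. Zc3h12b, the Regnase-2 gene, had 47 control reads and 59 in the CKO-labelled library, a log2 ratio of -0.25 with an interval from -0.83 to 0.33. That interval holds 0 and lies above a 2-fold drop, and a smaller difference in this mRNA could not be told from none at such depth. The sign turned to 0.16 with equal library totals, so the labels are not checked by the targeted gene. By immunofluorescence, the paper reports lower Regnase-2 in the proximal tubules of CKO mice.

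None of the 10 endothelial genes was 2-fold higher or lower in the CKO-labelled library. Their median log2 ratio was -0.08, beside 0.02 over the 17469 genes kept, those that reached 10 scaled reads in either library, and all 10 passed that filter. Kdr was the lowest at -0.67 and Vwf the highest at 0.59, beside quartiles of all genes kept at -0.33 and 0.48. Among all genes kept, 13.4% were higher by 2-fold or more and 5.35% lower by as much, against 0 of 10 in each direction here. At 1.5-fold, Kdr was the 1 gene of the 10 that was lower and Vwf the 1 that was higher, beside 13.9% lower and 21.8% higher of all genes kept. In all, 7 of the 10 had a log2 ratio below 0, and so had 48.3% of the genes kept.

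These signs depended on the scaling. Equal library totals raised each ratio by 0.42 on the log2 scale, moved the median of all genes kept to 0.44 and that of the 10 genes to 0.34, and turned the sign of 6 of them, Pecam1, Cdh5, Flt1, Plvap, Ehd3 and Eng, to positive. Among all genes kept, the share below 0 fell from 48.3% to 20.6% under that scaling. The same 6 were positive with the deposited values, where the median of all genes was 0.57 and that of the 10 genes 0.50. Kdr was the lowest and Vwf the highest of the 10 under each of 12 settings of scaling, pseudocount, filter and constant.

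**Figure D1:**
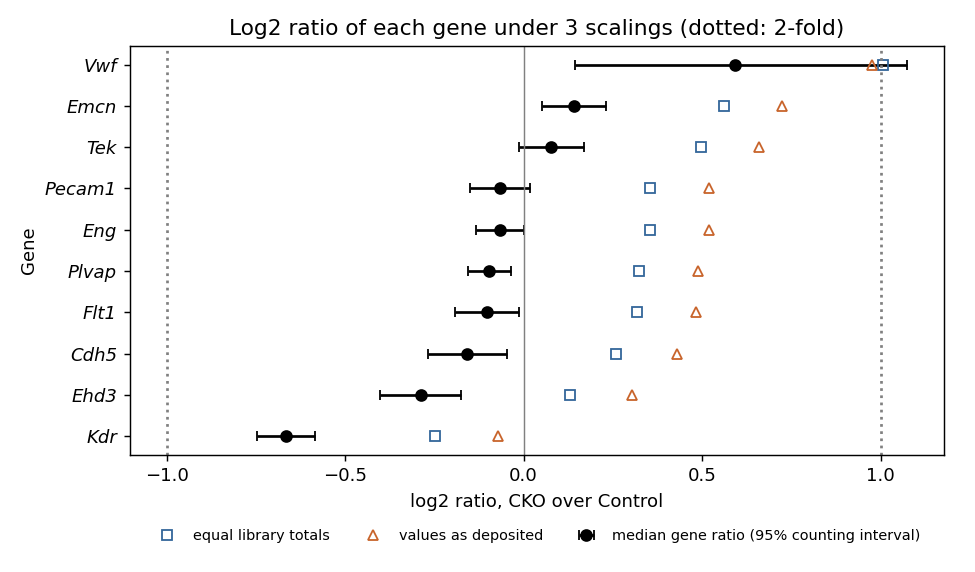
Log2 ratio of the CKO-labelled library to the control library on the horizontal axis for each of the 10 genes, with 95% counting intervals for the scaling by the median gene ratio, and the same ratio with equal library totals and with the deposited values. Black points run from -0.67 for Kdr to 0.59 for Vwf, and 6 of the 7 negative genes, all but Kdr, turn positive under both other scalings.

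Kdr encodes VEGF receptor 2, the main signalling receptor for VEGF-A on endothelial cells. It lies on mouse chromosome 5 at chr5:75932827-75978458 (Entrez gene 16542) of GRCm38, minus strand, by the GENCODE M21 annotation. Kdr had 2528 control reads and 2390 in the CKO-labelled library, 1593 after scaling. The log2 ratio of -0.67 had a counting interval from -0.75 to -0.58, and 11.2% of all genes kept had a lower ratio. Kdr remained negative with equal totals at -0.25 and was near 0 with the deposited values at -0.07.

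Flt1 encodes VEGF receptor 1, which binds VEGF-A, VEGF-B and placental growth factor and also exists as a soluble form that traps ligand. The gene lies at chr5:147561604-147726011 (Entrez gene 14254) on the minus strand. The control library held 1762 Flt1 reads and the CKO-labelled library 2462, 1641 after scaling, and the log2 ratio was -0.10 with an interval from -0.19 to -0.01. With equal totals it was 0.32. Reads were given per gene, so the membrane and soluble forms were not separated.

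The relation between the VEGF receptors does not depend on the scaling between libraries. Kdr made up 58.9% of the reads of Kdr and Flt1 together in the control library, with an exact 95% interval from 57.4 to 60.4. In the CKO-labelled library it made up 49.3%, from 47.8 to 50.7. These intervals cover counting error only and did not overlap, and the pair was chosen after its values were seen. Set against Pecam1, the share of Kdr in the summed reads was 56.8% in control kidney and 46.5% in the CKO-labelled library.

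The promoters of Kdr and Flt1 are shown because the share of this pair of genes differed between the libraries. RefSeq promoters of GRCm38.p6, from 250 bases before to 50 after a RefSeq start site, were matched for 6 of the 10 genes, Kdr, Flt1, Tek, Emcn, Ehd3 and Eng. That site need not be the first base of the gene in GENCODE, and for Ehd3 it lies within the gene. The windows were chr5:75978406-75978705 for Kdr and chr5:147725962-147726261 for Flt1, both on the minus strand and written 5′ to 3′, with matches to the searched letters in capitals.
Kdr: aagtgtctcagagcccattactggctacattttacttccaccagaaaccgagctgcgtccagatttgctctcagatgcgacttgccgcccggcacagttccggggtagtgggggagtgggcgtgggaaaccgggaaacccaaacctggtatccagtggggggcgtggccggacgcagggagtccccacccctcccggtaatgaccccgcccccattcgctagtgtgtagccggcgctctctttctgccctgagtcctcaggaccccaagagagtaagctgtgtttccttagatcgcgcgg
Flt1: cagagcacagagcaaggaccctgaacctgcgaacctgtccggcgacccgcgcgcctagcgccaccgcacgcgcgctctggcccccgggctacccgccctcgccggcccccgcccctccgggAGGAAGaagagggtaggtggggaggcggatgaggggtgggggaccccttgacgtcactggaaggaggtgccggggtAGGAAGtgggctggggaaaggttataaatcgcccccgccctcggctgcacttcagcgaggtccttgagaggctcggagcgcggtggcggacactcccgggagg
Searched on both strands were AGGAAG and CCGGAAG, which hold the core of sites for ETS factors and share the letters GGAAG, and AGATAA, a form of the GATA site. AGGAAG was found in 4 of the 6 promoters, those of Flt1, Emcn, Ehd3 and Eng, beside 35.4% of 32851 promoters of the same length. The Flt1 window held it at -129 and -53 from the start site. The Kdr window held no full match to any of the searched sites on either strand, which does not cover the shorter letters shared by the ETS forms. CCGGAAG was in 0 of the 6, beside 8.86% of all promoters, and AGATAA was in 1, that of Tek, beside 11.2%. These matches describe letters only.

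Tek encodes the receptor tyrosine kinase Tie2, which binds the angiopoietins and keeps vessels quiescent. It lies at chr4:94739289-94874976 (Entrez gene 21687) on the plus strand. Its reads were 1595 and 2526 in the control library and the CKO-labelled library, 1684 after scaling, with a log2 ratio of 0.08 and an interval from -0.01 to 0.17 that holds 0. Tie1, the partner receptor of Tek, had a log2 ratio of 0.08 as well. Tek gave 61.7% of the reads of both genes in each library.

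Pecam1 and Cdh5 hold endothelial cells together. Pecam1, or CD31, also occurs on platelets and leukocytes, and Cdh5 is VE-cadherin, the adhesion protein of endothelial junctions. Pecam1 at chr11:106654217-106750628 (Entrez gene 18613) had 1919 control reads and 2750 in the CKO-labelled library, 1833 after scaling. Its log2 ratio of -0.07 had an interval from -0.15 to 0.02 that holds 0, and with equal totals it was 0.35. Cdh5 at chr8:104101625-104144511 (Entrez gene 12562) had 1163 control reads and 1563 in the CKO-labelled library, 1042 after scaling. Its log2 ratio of -0.16, from -0.27 to -0.05, turned to 0.26 with equal totals. Cdh5 gave 37.7% of the reads of the pair in the control library and 36.2% in the CKO-labelled library, with overlapping intervals from 36.0 to 39.5 and from 34.8 to 37.7.

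Plvap forms the diaphragms of fenestrae in peritubular capillaries, and Emcn is a sialomucin on the surface of capillary and venous endothelium. Plvap at chr8:71497765-71511752 (Entrez gene 84094) had 3854 control reads and 5411 in the CKO-labelled library, 3607 after scaling. Its log2 ratio was -0.10, from -0.16 to -0.04, and 0.32 with equal totals. Emcn at chr3:137341067-137432185 (Entrez gene 59308) had 1621 control reads and 2683 in the CKO-labelled library, 1789 after scaling. Emcn had a log2 ratio of 0.14, from 0.05 to 0.23, and with Vwf it was 1 of 2 genes of the 10 whose interval lay wholly above 0. Emcn gave 45.8% of the reads of Emcn and Pecam1 in the control library and 49.4% in the CKO-labelled library, with intervals from 44.1 to 47.4 and from 48.0 to 50.7.

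Ehd3 encodes a membrane trafficking ATPase that in the kidney marks glomerular endothelium. The gene lies at chr17:73804134-73832094 (Entrez gene 57440), and its reads were 1146 and 1408, 939 after scaling. The log2 ratio was -0.29, from -0.40 to -0.17, and 0.13 with equal totals. Ehd3 gave 22.9% of the reads of Ehd3 and Plvap in the control library, from 21.8 to 24.1, and 20.6% in the CKO-labelled library, from 19.7 to 21.6. These intervals, for a pair chosen after its values were seen, cover counting error only and did not overlap.

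Vwf encodes von Willebrand factor, the clotting protein stored in endothelial cells of larger vessels and in megakaryocytes. It lies at chr6:125546774-125686679 (Entrez gene 22371) and had few reads, 58 in control kidney and 132 in the CKO-labelled library, 88 after scaling. Its log2 ratio of 0.59 had a wide interval, from 0.15 to 1.07. With equal totals it was 1.01, the 1 value among the 10 genes that passed 2-fold under a setting of scaling, pseudocount, filter or constant. At this depth the size of the Vwf difference is loosely bounded.

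Eng encodes endoglin, a co-receptor for bone morphogenetic protein 9 and transforming growth factor beta. The gene lies at chr2:32646595-32682669 (Entrez gene 13805), and its reads were 2984 and 4276, 2851 after scaling. The log2 ratio was -0.07, with an interval from -0.13 to 0.00 that holds 0, and turned to 0.35 with equal totals. Eng shares 61 exon bases with Fpgs on the opposite strand. The libraries were stranded, but the strand setting of the counting is not given in the sources used here, so reads of that overlap cannot be told apart. None of the other 9 genes shared exon bases with a neighbour in the annotation.

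Levels of different genes were compared as reads per kilobase of the longest annotated transcript, from 1987 bases for Plvap to 8834 for Vwf. In the control library the order from high to low was Plvap at 1940 reads per kilobase, Eng at 872, Pecam1 at 558, Emcn at 460, Kdr at 427, Tek at 343, Ehd3 at 313, Cdh5 at 291, Flt1 at 256 and Vwf at 6.57. Of the 9 neighbouring pairs, 3 had overlapping counting intervals, Emcn with Kdr, Tek with Ehd3 and Ehd3 with Cdh5. In scaled reads per kilobase of the CKO-labelled library, Plvap at 1815, Eng at 833, Pecam1 at 533 and Emcn at 508 kept their places. Kdr, at 269, stood after Tek at 362. The 4 overlapping pairs there were Pecam1 with Emcn, Kdr with Cdh5, Cdh5 with Ehd3 and Ehd3 with Flt1. Shorter transcripts of a gene would raise its level per kilobase.

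**Figure D2:**
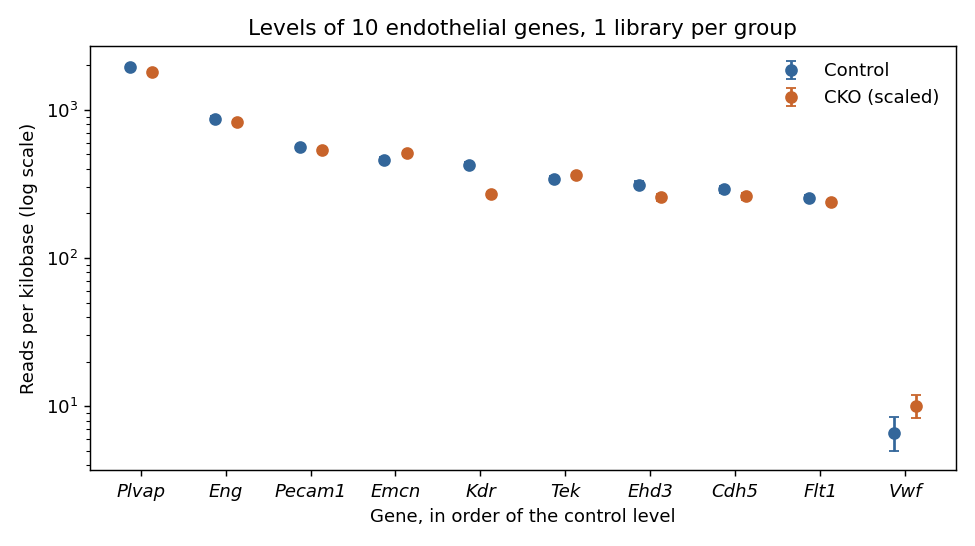
Reads per kilobase of the longest transcript on a log axis for the 10 genes in the control library and, after scaling, in the CKO-labelled library, with 95% counting intervals that are mostly smaller than the points. Plvap is the highest at 1940 and 1815, Vwf the lowest at 6.57 and 9.96, and Kdr moves from 427 to 269.

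Within the reads of the 10 genes, which need no scaling between libraries, Kdr gave 13.6% in the control library and 9.34% in the CKO-labelled library. Emcn gave 8.70% and 10.5%, and Tek gave 8.56% and 9.87%. Plvap, with the most reads, gave 20.7% and 21.1%, with overlapping intervals. Together the 10 genes had 18630 control reads and 25601 in the CKO-labelled library, 17067 after scaling, a log2 ratio of sums of -0.13. As a share of all reads of the library they made up 0.0480% and 0.0587%, a difference in the other direction.

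**Figure D3:**
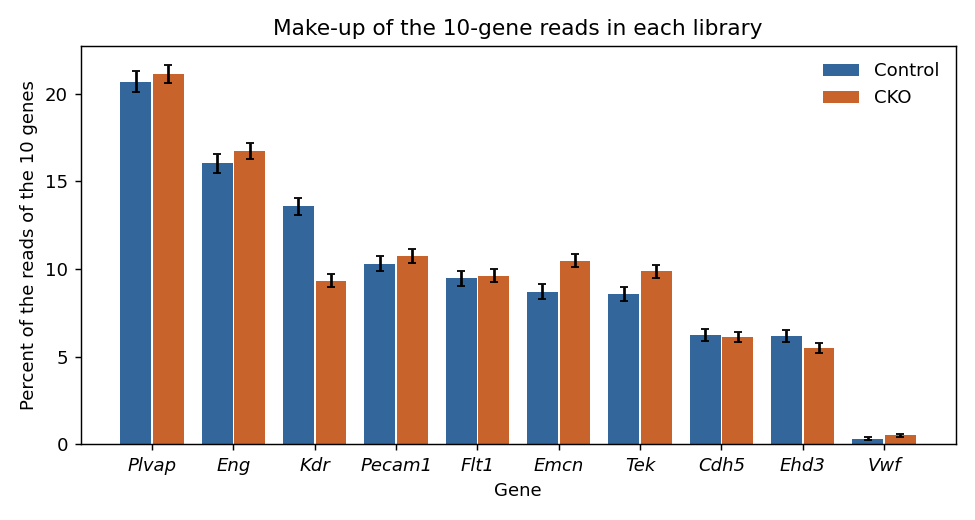
Percent of the summed reads of the 10 genes contributed by each gene in each library, with exact 95% binomial intervals. Bars for Kdr differ most, 13.6% in the control library and 9.34% in the CKO-labelled library, while those of Plvap, 20.7% and 21.1%, have overlapping intervals.

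The log2 ratio over all genes leaned with the number of reads. In the range from 1000 to below 4000 mean scaled reads, which holds 9 of the 10 genes, all but Vwf, the 4489 genes had a median of -0.12, with quartiles at -0.37 and 0.12, and 64.0% were below 0. Kdr lay below the lower quartile of that range. Ehd3, Cdh5, Flt1, Plvap, Pecam1, Eng and Tek lay between the quartiles, and Emcn lay above the upper one.

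**Figure D4:**
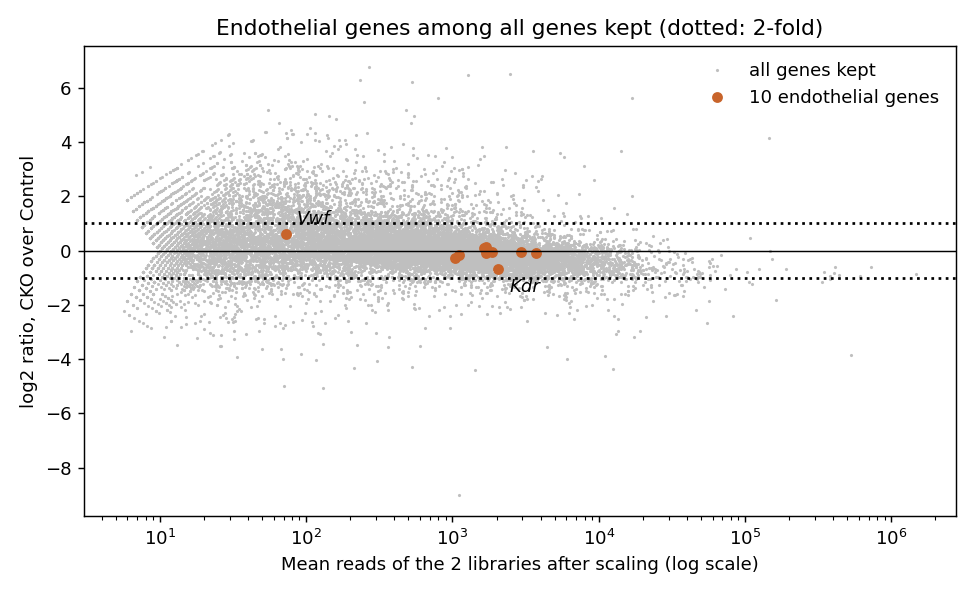
Log2 ratio on the vertical axis against mean reads of both libraries after scaling on a log axis, for the 17469 genes kept in grey and the 10 endothelial genes in orange. All 10 lie between the dotted lines at 2-fold, with Kdr at -0.67 and Vwf at 0.59 as the outermost; with equal library totals Vwf is at 1.01 and 6 genes turn from negative to positive.

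Of 20 other genes enriched in endothelial cells, 14 were higher and 6 lower, beside 48.3% of all genes kept below 0, with a median log2 ratio of 0.23, beside 0.02 over all genes kept. Ecscr, which encodes an endothelial surface protein of cell migration, was the 1 gene past 2-fold, with 173 control reads and 547 in the CKO-labelled library and a log2 ratio of 1.07, beside 13.4% of all genes kept past 2-fold higher. Robo4, a guidance receptor that stabilises vessels, was the lowest at -0.35, from 688 and 811 reads, and turned to 0.07 with equal totals. Adgrf5, an adhesion receptor of endothelial and epithelial cells, had the most reads, 2907 and 5289, and a log2 ratio of 0.28. The summed reads of this list were 14403 and 25642, 17095 after scaling. With equal totals 20 of the 20 were higher, beside 20.6% of all genes kept below 0. Past 2-fold were 4 of the 20, beside 21.9% of the genes kept under that scaling.

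The VEGF family ligands did not move one way. Vegfa, which binds both receptors, had 6385 control reads and 7405 in the CKO-labelled library, with a log2 ratio of -0.37 that turned to 0.05 with equal totals. Vegfb, which binds Flt1, was the lowest at -0.57, from 1140 and 1154 reads, and at -0.15 with equal totals and 0.04 with the deposited values. Vegfd, a ligand of Flt4, was the highest at 1.27, from 92 and 335 reads. Pgf, placental growth factor and a ligand of Flt1, was at 1.17 from 11 and 39 reads, with an interval from 0.25 to 2.36, and was within 2-fold at 0.97 in the deposited values. Of the 5 ligands, 2 were past 2-fold higher and 0 past 2-fold lower, beside 13.4% and 5.35% of all genes kept. Their median of 0.24 turned to -0.07 with a filter of 50 scaled reads, and the log2 ratio of their summed reads was -0.35.

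Both angiopoietins that were measured were higher, beside 48.3% of all genes kept below 0, with a median of 0.53. Angpt1, the activating ligand of Tek, was at 0.43 from 545 and 1103 reads. Angpt2, which can oppose it, was at 0.63 from 385 and 895 reads, and past 2-fold at 1.05 with equal totals and 1.17 with the deposited values. Angpt2 gave 41.4% of the reads of the pair in the control library and 44.8% in the CKO-labelled library, with overlapping intervals from 38.2 to 44.6 and from 42.6 to 47.0. Angpt4 was not analysed here. All 5 genes of the receptors and the phosphatase that act with Kdr, Flt1 or Tek were higher, beside 48.3% of genes kept below 0. The median of the 5 was 0.42. The highest was Nrp2, a neuropilin, at 0.65 from 806 and 1901 reads, and the lowest was Tie1 at 0.08. None of the 5 passed 2-fold under this scaling, beside 13.4% of all genes kept. Nrp2 did with equal totals at 1.07 and with the deposited values at 1.21, and Nrp1 with the deposited values at 1.07. Of the genes kept under these scalings, 21.9% with equal totals and 17.9% with the deposited values were past 2-fold higher.

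In the route in which Eng acts, 14 of the 14 genes measured were higher and 2 were past 2-fold, with a median log2 ratio of 0.44. Eng itself was at -0.07, and in which cells the 14 genes changed was not tested. Of all genes kept, 48.3% were below 0 and 13.4% past 2-fold higher. With equal totals 4 of the 14 were past 2-fold, and 8 with the deposited values, beside 21.9% and 17.9% of the genes kept under these scalings. The 2 were Id1 and Id3, targets of bone morphogenetic protein signalling, inhibitors of differentiation that many cell types express. Id1 had 677 control reads and 2181 in the CKO-labelled library, a log2 ratio of 1.10, and Id3 had 1231 and 4131, a log2 ratio of 1.16. The lowest was Tgfbr2, a receptor for transforming growth factor beta, at 0.04 from 3065 and 4714 reads. Acvrl1, the receptor that signals with Eng, had 675 and 1138 reads, and Eng gave 81.6% of the reads of Eng and Acvrl1 in the control library and 79.0% in the CKO-labelled library, with intervals from 80.3 to 82.8 and from 77.9 to 80.1. Gdf2 and Bmp10 were not analysed here.

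Among 11 junction partners of Cdh5, 9 were higher and 2 lower, beside 48.3% of all genes kept below 0, with a median of 0.21. With equal totals 11 of the 11 were higher, beside 20.6% of all genes kept below 0. Jam2, a junctional adhesion molecule, was the highest at 1.03, from 164 and 504 reads, and the 1 gene past 2-fold, beside 13.4% of all genes kept. Esam, an adhesion molecule of endothelial cells, was the lowest at -0.33, from 798 and 953 reads, and turned to 0.09 with equal totals. Most of these genes, the catenins among them, are also made by epithelial cells.

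Markers of vessel types went different ways. Of 5 glomerular endothelial genes kept out of 6, 2 were higher and 3 lower, beside 48.3% of all genes kept below 0. Of the 3 lower, Gata5 had only 10 and 12 reads, with an interval from -1.66 to 1.05 that holds 0. With equal totals 4 were higher and 1 lower, beside 20.6% of all genes kept below 0. The median of the 5 was -0.17, and 0.25 with equal totals. It turned to 0.14 with a filter of 50 scaled reads and to 0.13 with the column minimum subtracted. Mapt, which encodes tau, a protein best known from neurons, and had the most reads of this list, was past 2-fold lower at -1.10, from 5017 and 3502 reads, the 1 such gene of the 5, beside 5.35% of all genes kept, but within 2-fold at -0.68 with equal totals and -0.51 with the deposited values. In the control library Mapt had 955 reads per kilobase, beside 313 for Ehd3 and 558 for Pecam1. From which cells the Mapt reads came was not tested. Plat, tissue plasminogen activator, was the highest of the 5 at 0.85 from 920 and 2494. It was past 2-fold at 1.27 with equal totals and 1.41 with the deposited values, beside 21.9% and 17.9% of genes kept under these scalings. Of 4 capillary and venous genes, 0 were higher and 4 lower, beside 48.3% of all genes kept below 0, with a median of -0.36. By mean scaled reads these 4 ran from 894 to 16895, and from 1000 to below 4000 reads 64.0% of genes were below 0. With equal totals 2 were higher and 2 lower, beside 20.6% of all genes kept below 0, with a median of 0.06. The lowest of these was Cd300lg, a receptor of capillary endothelium, at -0.67 from 1099 and 1034 reads, and the highest and most abundant was Igfbp5, an insulin-like growth factor binding protein, at -0.08, which turned to 0.34 with equal totals. Ackr1 was not analysed here.

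Of 9 arterial genes, 6 were higher and 3 lower, beside 48.3% of all genes kept below 0, with a median of 0.12. Bmx, a kinase of arterial endothelium, was at 1.01 from 23 and 71 reads, and Hey1, a Notch target, was at -1.18 from 69 and 45 reads. These were the 2 of the 9 past 2-fold, beside 13.4% higher and 5.35% lower of all genes kept, both with few reads, and their intervals ran from 0.35 to 1.79 and from -1.78 to -0.64. Hey1 was within 2-fold at -0.77 under equal totals and -0.12 in the deposited values. Cxcl12, a chemokine with the most reads in the mean of both libraries, though not in control kidney, was at 0.19 from 4117 and 7041 reads. Slc14a1, the urea transporter of the descending vasa recta, was at 0.26 from 198 and 355 reads. Of 6 lymphatic genes, 5 were higher and 1 lower, with a median of 0.41, and 1 was past 2-fold higher, beside 13.4% of all genes kept and 48.3% below 0. Pdpn, which podocytes also make, was the highest at 1.86 from 147 and 807 reads, Reln the lowest at -0.74 from 198 and 177, and Flt4, the receptor for VEGF-C and VEGF-D, had 362 and 726 reads, the most of the list in the control library and in the mean of both. Lyve1 was not analysed here.

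Of 10 genes that endothelial cells raise on activation, 5 were past 2-fold higher and 1 past 2-fold lower, beside 13.4% and 5.35% of all genes kept. With 9 of the 10 higher, beside 48.3% of all genes kept below 0, the median log2 ratio was 1.35. That median fell within 2-fold to 0.76 in the deposited values scaled by their median gene ratio. Vcam1, an adhesion molecule for leukocytes that injured tubule cells also make, was the highest, with 306 control reads and 6520 in the CKO-labelled library, the most of the list there but not in control kidney, and a log2 ratio of 3.82. Selp at 3.06, Edn1 at 3.05 and Icam1 at 1.82, named after their values were seen, were also past 2-fold. Selp had 2 control reads and 36 in the CKO-labelled library, and its interval ran from 1.63 to 6.68. It reached the filter of 10 scaled reads only in the CKO-labelled library, and was at 1.23 with the deposited values. Esm1, which marks VEGF-responsive endothelium and had the most control reads, was past 2-fold lower, with 1320 and 837 reads, a log2 ratio of -1.24 and an interval from -1.37 to -1.12. Esm1 was at -0.82 under equal totals and at -0.61 in the deposited values. In which cells these genes changed was not tested.

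Macrophage markers moved further than the endothelial genes. Of 10 macrophage markers, 9 were past 2-fold higher, beside 13.4% of all genes kept. All 10 were higher, beside 48.3% of all genes kept below 0, with a median log2 ratio of 2.61. Their summed reads were 4111 in the control library and 27733 in the CKO-labelled library, 18489 after scaling. Lyz2, the lysozyme of myeloid cells, was the highest at 3.66 from 518 and 9836 reads and had the most reads in the CKO-labelled library, while Csf1r, the receptor of colony stimulating factor 1, was the lowest at 0.51 from 2244 and 4803 and had the most in control kidney. None of the 10 was at 3 or fewer reads in either library. Pecam1, which leukocytes also carry, was at -0.07, and the part of macrophage RNA in its value was not tested.

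Of 11 proximal tubule markers, 1 was higher and 10 lower, 3 of them past 2-fold, beside 48.3% of all genes kept below 0 and 5.35% past 2-fold lower, with a median of -0.62, of -0.20 with equal totals and of -0.04 with the deposited values. By mean scaled reads all 11 lay above the range from 1000 to below 4000, in which 64.0% of genes were below 0. With equal totals 3 were higher and 8 lower, beside 20.6% of all genes kept below 0. Of the 3 past 2-fold, Slc22a6 stayed so at -1.21, while Slc34a1 at -0.75 and Slc27a2 at -0.81 did not. Their summed reads were 628198 and 501732, 334488 after scaling, or 1.62% of all control reads and 1.15% of those labelled CKO. Slc22a6, an organic anion transporter, was the lowest at -1.62 from 50329 and 24475 reads, Slc5a12, a lactate transporter, the highest at 0.41 from 25259 and 50338, and Slc27a2, a fatty acid transport protein, the most abundant with 157696 and 100638. Of the 7 markers of other tubule segments, 4 were higher and 3 lower, beside 48.3% of all genes kept below 0, with a median of 0.08. With equal totals 6 were higher and 1 lower, beside 20.6% of all genes kept below 0, with a median of 0.50. Summed reads of the 7 were 147884 and 272665. With the median gene ratio the lowest was Calb1, calbindin of the distal convoluted tubule, at -0.58, which was 0.01 with the deposited values. The highest was Aqp2, the water channel of the collecting duct, at 0.79, and Umod, uromodulin, had the most reads, 90047 and 187056. The part of these shifts in the endothelial values was not tested.

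Blood left in the vessels would add red cell and platelet RNA. Of 5 red cell genes, 2 were higher and 3 lower, beside 48.3% of all genes kept below 0. The 5 had a median of -0.01, of 0.41 with equal totals, and summed reads of 14521 and 21645, 14430 after scaling. Alas2, the heme synthesis enzyme of red cell precursors, was the highest at 0.09, Hba-a2 the lowest at -0.06, which was 0.36 with equal totals, and Hbb-bs had the most reads, 6084 and 9054. The alpha globin genes are nearly identical copies, so the division of reads between them is uncertain. Of 8 platelet genes, 5 were measured and 3 kept. Of these 3, 2 were higher and 1 lower, beside 48.3% of all genes kept below 0, with a median of 0.79. That median was -0.23 with no filter, which lets in Gp1bb and Ppbp with few reads, -0.05 with the deposited values scaled by their median gene ratio, and 0.24 with a filter of 50 scaled reads. Itgb3, an integrin that other cells also carry, was at 1.05 from 56 and 176 reads, and Itga2b, its platelet partner and the most abundant in control kidney, was at -0.58 from 165 and 165 reads, which was 0.11 with the deposited values. Gp9, Gp1ba and Treml1 were not analysed here. Summed platelet reads were 249 and 397, 265 after scaling, and their part in the Vwf value was not tested.

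**Figure D5:**
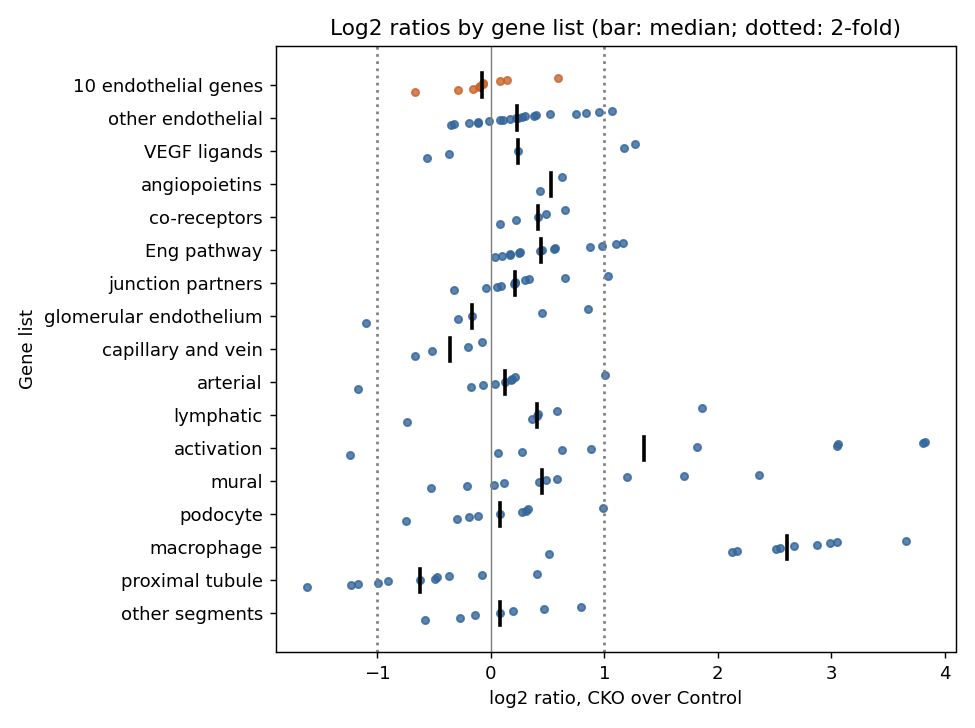
Log2 ratio of each gene kept, in rows by gene list, with a black bar at the median of each list. The 10 endothelial genes in orange have a median of -0.08, between proximal tubule markers at -0.62 and macrophage markers at 2.61; with equal library totals these medians are 0.34, -0.20 and 3.03.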

How the data were processed

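RNA-seq was read for 1 control library and 1 library labelled CKO. The study's methods and the submitters' processing notes name STAR 2.7.3a for alignment, HTSeq for counting and DESeq2 for normalization by the authors, with mm10 as the build. Cufflinks 2.2.1 is named as well, for values that were not analysed here. The deposited values were treated as a score: whole numbers that the authors call normalized counts, with column minima of 35 (control) and 51 (CKO). That each column holds reads plus a constant is an inference, and how the constant arose is not stated. The constants 34 and 50, the column minimum minus 1, were subtracted, and intervals treat the remainder as reads. CKO reads were multiplied by the median gene ratio. A gene was kept if it reached 10 scaled reads in either library, and 2-fold served as threshold, since no test was possible.

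The 10 genes and all lists were chosen with earlier results of these data known, and the pairs of genes were chosen after their values were seen. Some genes stand in more than 1 list. Named were the 10 genes and Zc3h12b, from every other list the highest and lowest log2 ratio among the genes kept and the most abundant marker by the mean of both libraries, and in the lists of ligands, partners and vessel types each gene past 2-fold. Nrp1, Slc34a1, Gata5, Gp1bb and Ppbp were named for their change with the settings or their low reads. Some results under this rule are not reported here. Steps were tested on simulated data. Python 3.11.15, numpy 2.4.6, pandas 2.3.3, scipy 1.17.1 and matplotlib 3.10.9 were used, with lengths and positions from GENCODE M21.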

Additional observations from a re-analysis of the deposited data

How the results depend on the processing

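No paired analysis was possible because only 1 library stood for each group. The median of the 10 endothelial genes stayed between -0.12 and -0.03 with other pseudocounts, filters, upper quartiles, trimmed means, abundant genes or other constants, and moved to 0.34 with equal library totals and 0.50 with the deposited values. The number at least 2-fold higher was 1 with equal totals (Vwf) in place of 0. At 1.5-fold, 1 was higher and 1 lower, as the threshold itself brings about. The number below 0, a count added after the data were seen, fell from 7 to 1 with equal totals, and likewise with the deposited values. Among all genes kept, the share below 0 fell from 48.3% to 20.6% with equal totals. Zc3h12b was at 0.42 with the deposited values. Of the other values of single genes and lists, 271 stayed within their counting interval, or within 1.5 times for a count, and 70 moved, 0 of them a value past 2-fold that changed sign. Apart from the scale itself, the cause was not tested.

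Over the 17469 genes kept, 2334 were at least 2-fold higher and 934 lower, 71.4% higher. The genes kept change with the setting. Equal totals gave 3870 and 437 of 17682, 89.9% higher, and the deposited values 3574 and 131 of 20002, 96.5% higher. With the deposited values and the median gene ratio they were 1196 and 463 of 20002. With at least 50 scaled reads 1614 were higher and 617 lower of 14396. At 1.5-fold 3801 were higher and 2423 lower, and at 4-fold 749 and 166. Depth limits genes with few reads, such as Vwf, Selp, Gata5, Pgf, Bmx and Hey1.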

Other observations

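Mural cells, the pericytes and smooth muscle cells around the vessels, were read from 10 markers, of which 8 were higher and 2 lower, beside 48.3% of all genes kept below 0, with a median log2 ratio of 0.45. Tagln, a smooth muscle actin binding protein that myofibroblasts also make, was the highest at 2.37, with 398 control reads and 3087 in the CKO-labelled library. Acta2 at 1.70 and Notch3 at 1.20, named after their values were seen, were also past 2-fold, which makes 3 of the 10, beside 13.4% of all genes kept. Rgs5, a pericyte gene and the most abundant of the list, was at 0.59 from 1564 and 3524 reads. Kcnj8, a potassium channel of pericytes, was the lowest at -0.53 from 323 and 335 reads, and was 0.11 with the deposited values. Summed reads of the list were 7194 and 17814, 11876 after scaling.

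Podocyte markers, which border the glomerular endothelium, had a median of 0.08, with 5 of 9 higher and 4 lower. Of all genes kept, 48.3% were below 0. Cdkn1c, a cell cycle inhibitor, was the highest at 0.99 from 534 and 1592 reads. Podxl, which endothelial cells also make, had the most reads, 4782 and 7595. Summed reads were 10037 and 15392, 10261 after scaling.

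The paralogs of Ehd3, itself at -0.29, went both ways. Ehd1 was at -0.61 from 4923 and 4837 reads, Ehd4 at 0.62 from 1078 and 2493, and Ehd2 at 0.80 from 640 and 1677, so that the median of the 3 was 0.62. With equal totals they were at -0.19, 1.04 and 1.22, and Ehd3 turned to 0.13. Both Ehd2 and Ehd4 are made by endothelial and other cells.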
